A study of Glycine max with 6 samples.

Results

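DHAR4, SOD1, PRX2 and PRX2B are soybean genes for enzymes that handle reactive oxygen, and each was measured by 1 probe set on a one-colour Affymetrix soybean array. The 4 were taken as every probe set whose only symbol in the platform annotation is one of these names, which gave 4 probe sets of the 37593 for soybean. They were singled out because an earlier look at these data had put them higher in paraveinal mesophyll (PVM) than in palisade parenchyma (PP). Their PVM and PP values are therefore given below as a description, with no test. A further probe set is annotated to both PRX2B and PRX2 and is shown beside them, outside the 4.

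Superoxide dismutases turn superoxide into hydrogen peroxide and oxygen. Dehydroascorbate reductases use glutathione to restore ascorbate, the main soluble antioxidant of leaves, after it has been spent on peroxide. Class III peroxidases are secretory plant enzymes of the cell wall and vacuole that use hydrogen peroxide to oxidise phenolics and other substrates. The PVM is a layer of large vacuolate cells between palisade and spongy tissue, known in soybean for holding vegetative storage proteins and lipoxygenases, whereas the palisade is the upper photosynthetic layer.

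Both groups were cells of mature leaves from untreated plants kept in growth chambers, with 3 biological replicates each of PVM and PP, and neither the cultivar nor the plant age is given in the sources used here. Cells of either layer were taken by laser microdissection from paraffin sections of leaves fixed with an ethanol and acetic acid mixture, and were pooled within a sample. RNA from so few cells was amplified over the whole transcriptome before it was labelled, and each sample went to its own array. Titles and cell type entries separate the layers, while the description field gives paraveinal cells for all 6 samples; the titles were followed.

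Values are deposited intensities (linear, in arbitrary units, mean ± SD over 3 arrays), and differences are PVM minus PP on a quantile-normalized log2(intensity + 16) scale, which understates changes of dim probe sets. Background on an array was the 95th percentile of its probe sets for other organisms, which lay at 11.0 to 20.7. The share of soybean probe sets above it ran from 58.4% to 68.5%. PP arrays 1 and 2 resembled each other more than any other pair (r = 0.947 over tested probe sets, other pairs 0.811 to 0.885). PVM arrays correlated at 0.847 to 0.870 with each other and at 0.856 to 0.878 with PP array 1. Each PVM array was thus closer to PP array 1 than to the other PVM arrays. Marker genes were each read on the probe set with the highest mean intensity. Of the PVM markers, 5 of 5 were higher in PVM, with summed intensities of 31432 to 33055 on PVM arrays and 13829 to 22776 on PP arrays. The brightest of them, VSPA, overlapped between layers in deposited intensity, at 11493 to 15169 in PVM and 9609 to 14923 in PP. Of the photosynthetic markers, 4 of 4 on the array were lower in PVM, summing to 24112 to 29724 there and 37891 to 42942 in PP. Both layers thus carried both marker sets. The sums are of deposited intensities, on which bacterial and phage spike-in controls read higher in PP, by 0.52 on a log2 scale. After normalization the photosynthetic markers CAB3, RCA14, RCA11 and RCAALPHA differed by -0.03, -0.26, -0.61 and -0.68. Of the vascular markers, sucrose synthase SS and the sucrose transporter SUT1 were on the array and both were higher in PVM, summing to 213 to 1402 there and 132 to 290 in PP.

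**Figure D1:**
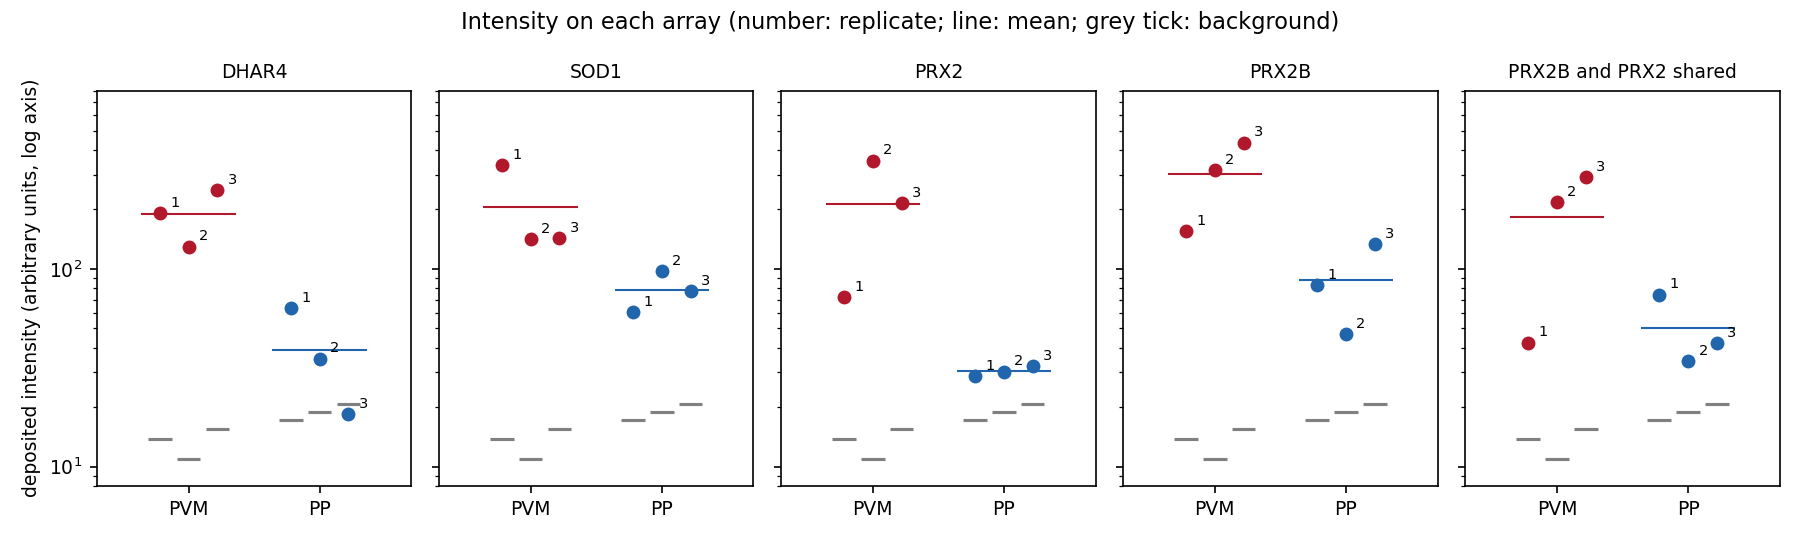
Deposited intensity (log axis) of DHAR4, SOD1, PRX2, PRX2B and the probe set shared by PRX2B and PRX2, on the 3 PVM (red) and 3 PP (blue) arrays. Numbers are replicates, coloured lines are means and grey ticks are each array's background; the layers do not overlap for the 4 genes, but do for the shared probe set, where PVM array 1 (42.4) lies among the PP arrays.

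All 4 genes had higher intensity on each PVM array than on any PP array, before and after normalization. Differences ran from 1.05 for SOD1 to 2.03 for PRX2. Such a complete separation in favour of PVM was found for 8.62% of the 25314 soybean probe sets tested (2181 of them), and since the genes were picked from this contrast, nothing is read from their count. In dissected tissue, a lower intensity can come from fewer cells holding the transcript or from less of it per cell, and these cannot be told apart.

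SOD1, a superoxide dismutase by its symbol, had intensities of 335.6, 142 and 143 on PVM arrays 1, 2 and 3. On PP arrays 1, 2 and 3 it read 60.5, 97.4 and 77.0. PVM array 1 stood well above the other PVM arrays, which agreed closely and lay at 9.24 to 12.9 times background. The mean was 207 ± 112 over the PVM arrays against 78.3 ± 18.5 over the PP arrays, which gave a log2 difference of 1.05 (SE 0.43). A difference at least this large in favour of PVM was present in 7.94% of tested probe sets. Without PVM array 1 the difference was 0.67, the lowest value with any array left out.

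PVM array 1 also read highest for SS and SUT1, the vascular markers that had a probe set, and SS was above background on only 3 of 6 arrays. SS, which is abundant in phloem of many plants, read 785 on that array, 13.9 and 13.5 on PVM arrays 2 and 3, and at most 18.4 on PP arrays. SUT1, a sucrose carrier, read 617 on PVM array 1, 469 on PVM array 2 and 199 on PVM array 3, and 131 to 284 in PP. Their part in the SOD1 value was not tested. The catalase CAT1 had a like outlying reading, 1065 on PVM array 1 against 225 to 360 on the other PVM arrays and 233 to 339 in PP.

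DHAR4, a dehydroascorbate reductase, read 191, 130 and 251 on PVM arrays 1, 2 and 3. On PP arrays 1, 2 and 3 it read 63.1, 35.1 and 18.5, and the last of these was below that array's background of 20.7. The layers lay further apart than for the other 3 genes, with a gap of 0.97 on the normalized log2 scale between the lowest PVM and the highest PP array. Mean intensity was 191 ± 60.7 (PVM) and 38.9 ± 22.5 (PP). The log2 difference was 1.99 (SE 0.41), and 1.56% of tested probe sets differed at least as much in favour of PVM. Without PP array 3 the difference was 1.71, and without PP array 1, the brightest of that layer, it was 2.29.

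The arrays that were highest for DHAR4 were not those that were highest for SOD1. Within PVM, DHAR4 had a spread (SD of normalized log2 values) of 0.39, below the median of 0.56 over tested probe sets, and SOD1 one of 0.67. Within PP the order turned, with 0.58 for DHAR4 and 0.33 for SOD1 beside a median of 0.44.

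PRX2, a class III peroxidase, read 71.8, 353 and 215 on PVM arrays 1, 2 and 3. On PP arrays 1, 2 and 3 it read 28.6, 30.2 and 32.3, no more than 1.67 times background. PVM array 1 was thus the lowest of its layer for PRX2, the reverse of SOD1. The PVM mean was 213 ± 141 and the PP mean 30.4 ± 1.83. This was a log2 difference of 2.03 (SE 0.54), with 1.42% of tested probe sets at least as high.

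The spread of PRX2 was uneven between layers. Its SD on the normalized log2 scale was 1.05 in PVM, where 84.4% of tested probe sets varied less, and 0.21 in PP, where 19.2% did. The highest PVM array was 4.92 times the lowest, and the highest PP array 1.13 times the lowest. The narrow PP range lies just above background on all 3 arrays. Leaving out PVM array 1 raised the difference to 2.61, and leaving out PVM array 2 lowered it to 1.57.

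PRX2B, a second class III peroxidase named after PRX2, read 156, 316 and 436 on PVM arrays 1, 2 and 3. On PP arrays 1, 2 and 3 it read 82.8, 46.8 and 134. PVM array 1 was again the lowest of its layer, and after normalization it exceeded PP array 3 by only 0.01 on the log2 scale. PRX2B averaged 303 ± 141 in PVM and 87.9 ± 43.9 in PP. Its log2 difference was 1.55 (SE 0.52), and 3.49% of tested probe sets were at least as high. The difference ran from 1.19 without PP array 2 to 1.95 without PVM array 1.

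The probe set annotated to both peroxidases cannot be assigned to either gene. It read 42.4, 217 and 290 on PVM arrays 1, 2 and 3, and 74.1, 34.0 and 42.2 on PP arrays 1, 2 and 3. PVM arrays 2 and 3 were above every PP array, while PVM array 1 was below PP array 1. Its log2 difference was 1.29 (SE 0.64), and it was 2.02 without PVM array 1. PVM array 1 was therefore the lowest PVM array for all 3 peroxidase probe sets.

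Among themselves, the peroxidases had the closest profiles of the 4 genes. The root mean square difference between centred normalized log2 profiles over the 6 arrays was 0.56 for PRX2 and PRX2B. It was 0.80 for DHAR4 and PRX2B, 0.83 for DHAR4 and SOD1, 0.84 for DHAR4 and PRX2, 0.97 for PRX2B and SOD1 and 1.10 for PRX2 and SOD1. The shared probe set lay at 0.50 from PRX2B and 0.58 from PRX2, and may hybridise with transcripts of either. The 4 genes lie on 4 different chromosomes of the RefSeq assembly Glycine_max_v4.0.

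Measured over the same 6 arrays, the 3 named genes nearest in profile to each were taken from 1113 probe sets with a name other than a bare locus number. For DHAR4 they were MAPKK2, a kinase of the mitogen-activated cascade (0.25), RAV, a transcription factor (0.39) and PRP2, a proline-rich cell wall protein (0.39). For SOD1 they were BZIP98, a transcription factor of the bZIP family (0.26), BIN2 (0.27) and NRP-A (0.30). PRX2B lay nearest to the Kunitz trypsin inhibitor KTI-3 (0.24), AAT (0.27) and the endoplasmic reticulum chaperone BIP4 (0.33). PRX2 had no neighbour as near: BIP4, the aquaporin PIP2-6 and the lipoxygenase LOX9 were all at 0.41. With 6 arrays in 2 layers, a profile mostly records the layer difference, so these distances are a description only.

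Other probe sets with 1 symbol, placed by that name in the families of the 4 genes, were not separated in favour of PVM. Most soybean probe sets (28546 of 37593) had no symbol and could not be placed in a family. DHAR3 was the other gene with a dehydroascorbate reductase symbol. It read 692, 688 and 323 on PVM arrays 1, 2 and 3 and 1111, 898 and 738 on PP arrays 1, 2 and 3. Every PVM array was below every PP array, the opposite of DHAR4, with a log2 difference of -0.77 (SE 0.40) that did not pass the threshold (adjusted p = 0.494 by limma). No test was made of DHAR4 against DHAR3, because DHAR4 was chosen for its direction.

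Beside SOD1, the superoxide dismutases with a symbol were SODB and SODB2. A RefSeq synonym names SODB2 as an iron form. SODB2 read 14270, 14088 and 13316 on PVM arrays 1, 2 and 3 and 18424, 19757 and 19430 on PP arrays 1, 2 and 3. Its normalized log2 difference was 0.04 (SE 0.31; limma adjusted p = 0.973), and those of the SODB probe sets were 0.14 and -0.0024. The sign of SODB2 and of the SODB probe set at 0.14 depended on the scaling. The other SODB probe set was below 0 under every scaling and pseudocount tried. Without quantile normalization the SODB probe sets were at -0.18 and -0.44 and SODB2 at -0.47, whereas SOD1 was at 1.15. Bacterial and phage spike-in controls had a higher mean in PP, by 0.52 on a log2 scale of the deposited values. Whether this bears on the SODB and SODB2 values was not tested.

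Of the other class III peroxidases with a symbol, PRX3 had 1 tested probe set. It read 101, 12.5 and 30.2 on PVM arrays 1, 2 and 3 and 39.7, 37.4 and 78.8 on PP arrays 1, 2 and 3. The layers overlapped and the log2 difference was -0.28 (SE 0.55; limma adjusted p = 0.883). Here PVM array 1 was the highest of its layer, unlike for PRX2 and PRX2B. All 3 PRX4 probe sets were at or below background on all 6 arrays and were not tested.

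**Figure D2:**
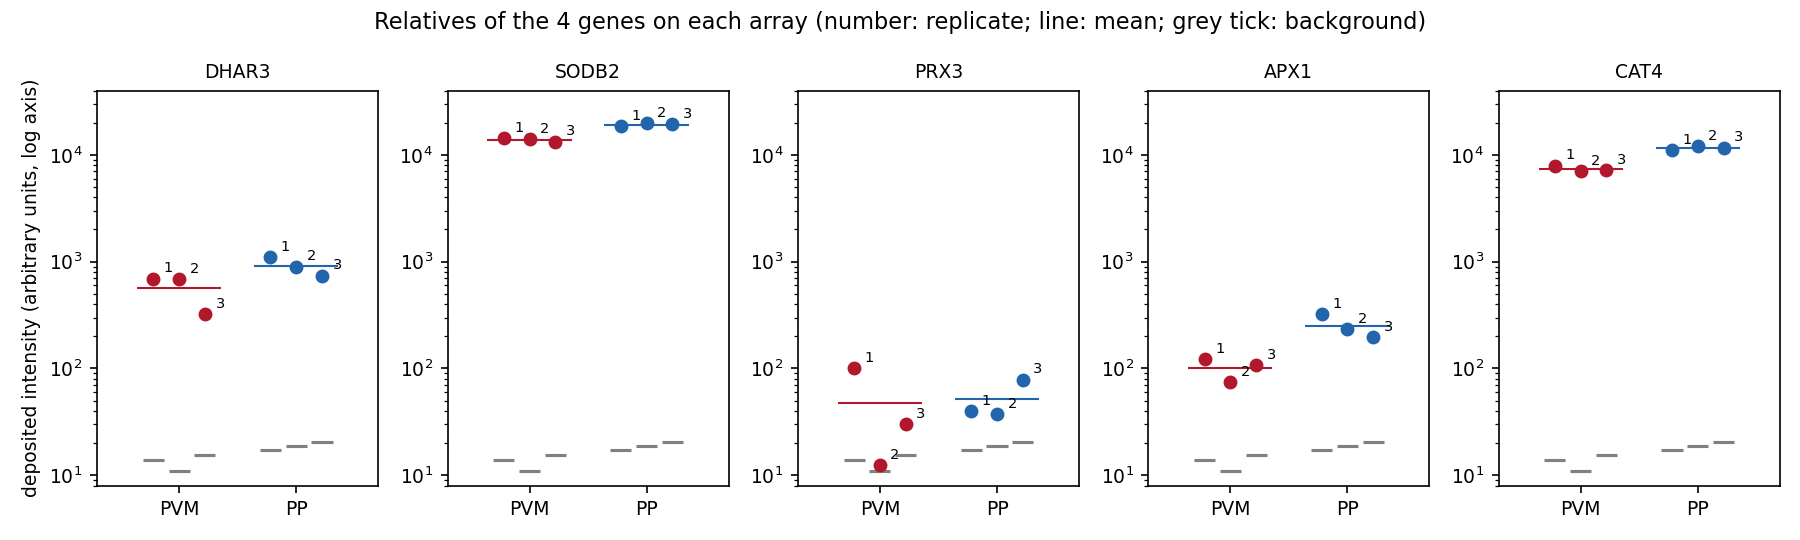
Deposited intensity (log axis) on each array for DHAR3, SODB2, PRX3, the APX1 probe set with the lowest difference of the list and the CAT4 probe set with the highest intensity, drawn as for the 4 genes. DHAR3, SODB2, APX1 and CAT4 have every PVM array below every PP array in deposited intensity, while the PRX3 arrays overlap; after normalization the SODB2 arrays overlap too.

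The remaining listed genes of the ascorbate and peroxide pathways had no probe set that passed the test. No probe set carried a listed name for monodehydroascorbate reductase, glutathione peroxidase, peroxiredoxin, thioredoxin, or ascorbate or glutathione synthesis. Those parts of the pathways are therefore not covered. Without the 4 genes and without glutathione transferases, 6 of 21 tested probe sets (12 genes) were above 0 and 15 below, where 46.3% of all tested probe sets were above 0. Their median log2 difference was -0.24, beside -0.06 over all tested probe sets. Without quantile normalization it was -0.38, and after centring on the soybean median -0.41, with 4 of 21 above 0 under both, and with a pseudocount of 64 it was -0.16. By limma 0 of the 21 passed an adjusted p of 0.05 in either direction, where 0.0435% of all tested probe sets passed as higher and 0% as lower. With an unadjusted p under 0.05 there were 0 higher and 1 lower, against 6.53% and 5.63% of all tested probe sets. The layers were fully separated for 1 probe set with PVM above and 6 with PVM below (8.62% and 10.1% of all tested probe sets).

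Ascorbate peroxidases, which spend ascorbate on hydrogen peroxide and so make the substrate of DHAR enzymes, had 6 of 7 probe sets lower in PVM. The lowest, for APX1, read 123, 74.2 and 107 on PVM arrays 1, 2 and 3 and 325, 233 and 196 on PP arrays 1, 2 and 3. The layers did not overlap, and the log2 difference was -1.29 (SE 0.33; limma adjusted p = 0.222). The other 4 APX1 probe sets ran from -0.50 to -0.06, so the gene's probe sets differ in size. APX2 had a probe set at 0.62, the exception, and another at -0.09.

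Glutathione reductase GR, which renews the glutathione that DHAR enzymes use, differed by -0.56 and -0.24 on its probe sets (smallest limma adjusted p = 0.634). Catalase CAT4, a remover of hydrogen peroxide, differed by -0.24 and -0.31 with no overlap between layers after normalization, and by -0.65 and -0.57 without quantile normalization. CAT1 differed by 0.53 with overlap. The smallest adjusted p of the 3 catalase probe sets was 0.721 by limma. Alternative oxidases, mitochondrial enzymes that limit the making of reactive oxygen, were split at 2 of 4 higher, from -0.58 to 0.78.

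Glutathione transferases, which couple glutathione to other molecules, had no probe set that passed the test. Of 37 tested probe sets (25 genes), 25 had a positive and 12 a negative difference, where 46.3% of all tested probe sets had a positive one. The median was 0.33, and 0.25 without quantile normalization and 0.22 with centring on the soybean median. It was 0.21 with a pseudocount of 64 and 0.44 with a pseudocount of 1. Under the other scalings and pseudocounts 24 to 27 were higher. By limma 0 passed in either direction, with a smallest adjusted p of 0.195. At an unadjusted p under 0.05, 7 were higher and 0 lower, against 6.53% and 5.63% of all tested probe sets. The layers were fully separated for 10 probe sets, all in favour of PVM, against 8.62% of all tested probe sets in that direction.

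The highest glutathione transferase was GSTF5, at 237, 509 and 452 on PVM arrays 1, 2 and 3 and 17.7, 122 and 74.9 on PP arrays 1, 2 and 3. Its log2 difference was 2.31 (SE 0.61; adjusted p = 0.230 by limma), and a second tested probe set of the gene differed by 1.02. GSTU13 followed at 1.64 (SE 0.40; limma adjusted p = 0.195), with PP arrays 2 and 3 at or below background and its other 3 probe sets not tested. The lowest was GSTZ3 at -0.78 (limma adjusted p = 0.485), and its other probe set had the opposite sign, at 0.83.

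**Figure D3:**
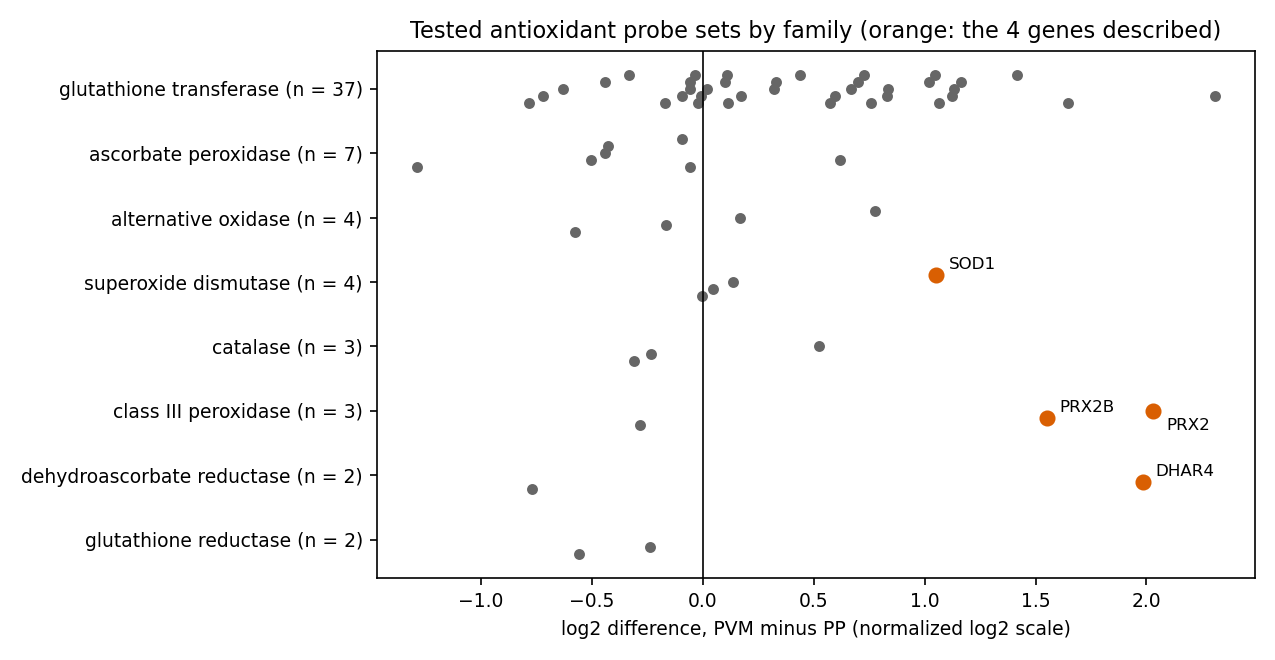
Log2 difference, PVM minus PP, of each tested antioxidant probe set by family, with 62 probe sets in all and the 4 genes in orange. The 4 genes were chosen as high and lie to the right of the other tested probe sets of their families; the glutathione transferases extend from -0.78 to 2.31.

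Over the whole antioxidant list with the 4 genes, 35 of 62 tested probe sets were higher in PVM, with a median of 0.11. Without them it was 31 of 58, with a median of 0.07. In the families of the 4 genes, the other tested probe sets with 1 symbol lay between -0.77 and 0.14, while the probe set shared by PRX2B and PRX2 was at 1.29.

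Genes next to the 4 on the assembly were also looked up. The nearest gene with a tested probe set on either side, 2 to 21 genes away, differed by -0.48 to 1.61. The highest was LOC100527041, with 2 genes between it and DHAR4, and the lowest CHI1A, on the other side of DHAR4 with 10 between.

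**Figure D4:**
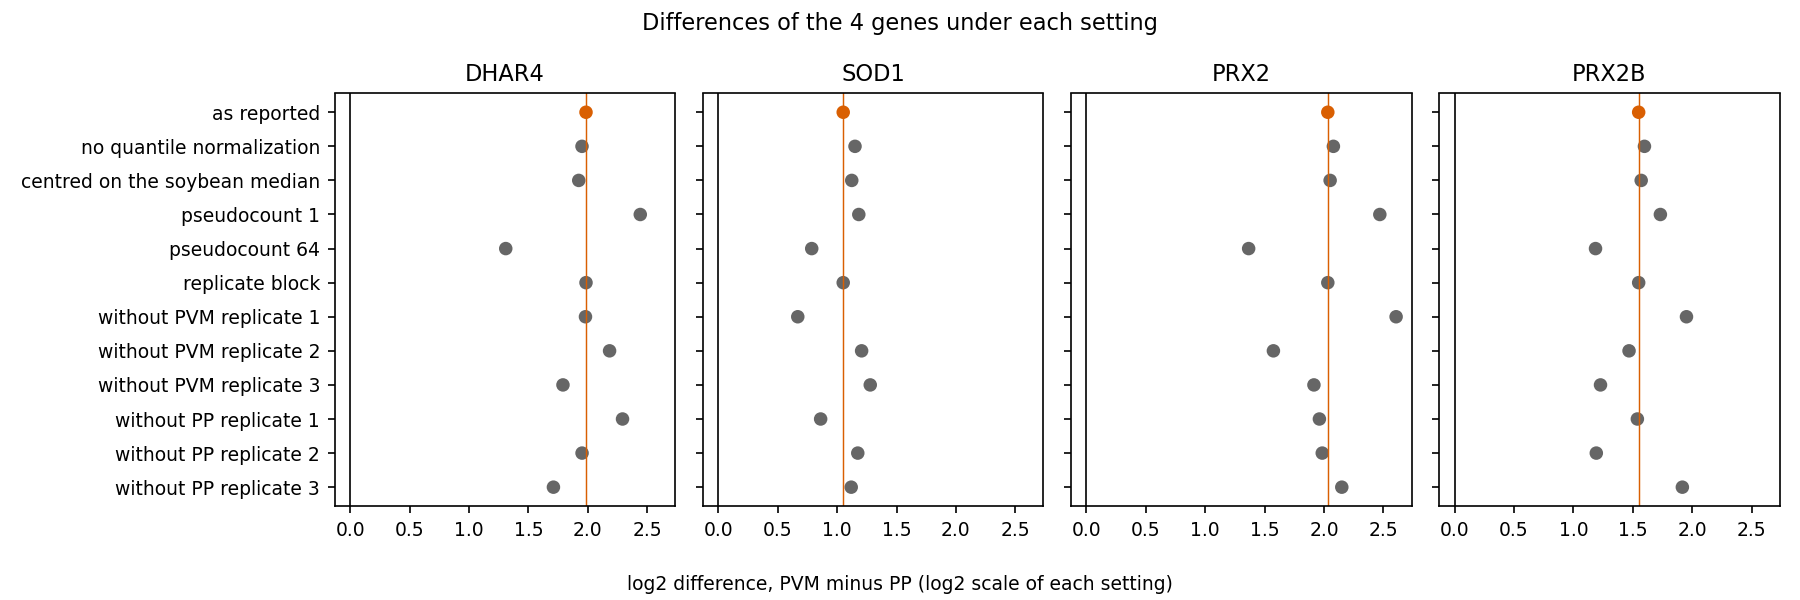
Log2 difference, PVM minus PP, of the 4 genes under each processing setting (grey) and as reported (orange, vertical line). All values stay above 0; the lowest is SOD1 without PVM array 1 (0.67) and the highest PRX2 without the same array (2.61).

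The 4 differences kept their sign under every scaling, pseudocount and left-out array tried. Without quantile normalization they were 1.95 for DHAR4, 1.15 for SOD1, 2.08 for PRX2 and 1.60 for PRX2B. A pseudocount of 64 gave 1.31, 0.79, 1.37 and 1.19, and a pseudocount of 1 gave 2.44, 1.18, 2.47 and 1.73, in the same order. Since the layers do not overlap for any of the 4, the sign with an array left out was fixed by their choice.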

How the data were processed

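Intensities of 61170 probe sets on 6 arrays were used as deposited by the authors. The sources used here do not give the summarisation program, and a 2% trimmed mean of 125 on every array points to scaling to a common mean. Values were taken as log2(intensity + 16) and quantile-normalized over all probe sets. Soybean probe sets above background on at least 3 of 6 arrays numbered 25314 and went into a limma fit (version 3.58.1, R 4.3.3; lmFit, eBayes, 2-sided, Benjamini-Hochberg over all tested, threshold 0.05), after a check on simulated data. The number of arrays limits the precision. Of 37593 soybean probe sets, 8677 had 1 symbol, 370 several and 28546 none; symbols were updated through RefSeq for Glycine_max_v4.0, which held all 4 genes.

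The members and lists were chosen with earlier results of these data known. The list covers 15 families by symbol or synonym, of which 8 had a probe set; the patterns GME and PER were narrowed because they matched unrelated names. Named were the 4 genes, others of their families, the 2 highest and 2 lowest list probe sets, and the 3 nearest profiles per gene. CAT1 was named after its values were seen. Promoter motifs were not analysed here. Replicate numbers are not known to pair the samples, and the main fit did not use them.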

Additional observations from a re-analysis of the deposited data

How the results depend on the processing

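The differences of DHAR4, SOD1, PRX2 and PRX2B kept their sign under all alternatives run, and moved by more than the spread between replicates once, for DHAR4 with a pseudocount of 64 (1.31). With each array left out they ran from 1.71 to 2.29 for DHAR4, 0.67 to 1.28 for SOD1, 1.57 to 2.61 for PRX2 and 1.19 to 1.95 for PRX2B. The list had 0 calls by limma in either direction under every alternative, and its median ran from 0.05 to 0.23 with an array left out. Over all tested probe sets, the 11 calls higher in PVM became 1 with a pseudocount of 1, 54 with a pseudocount of 64 (3 lower), 5 with no filter, 136 with an intensity trend and robust prior (13 lower), 1 at an adjusted p under 0.01 and 0 to 3 with an array left out. With the replicate block there were 0. The numbers in the titles are not known to mark shared plants: deviations of same-numbered arrays correlated at 0.02, 0.03 and 0.05, though 6 of 6 arrays correlated best with their own number. The causes of these shifts were not tested. Chosen after seeing the data were 1 probe set per gene, which gave a list median of 0.32 against 0.11, and leaving the 4 genes out, which gave 0.07. Dim PP values, at or near background for DHAR4 and PRX2, limit how well the size of both differences is known. The spread of PRX2 between replicates lay in PVM (SD 1.05) more than in PP (SD 0.21).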
